A study of Mus musculus with 9 samples.

Results

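The genes described here encode potassium channels and the HCN channels related to them, chosen as a list of 53 gene symbols looked up in the symbol column of a count table of 31804 mouse genes. Of these, 52 were found, all 52 passed the filter on low counts, and Kcnb2 was not analysed here. They comprise 25 voltage-gated (Kv) pore-forming genes, 8 auxiliary subunits, 6 inward rectifiers, 5 tandem-pore (K2P) channels, 5 channels of the calcium-activated group and 3 HCN channels. The counts came from the dorsal hippocampus of 9 male C57BL/6NCrl mice, 3 in each of 3 groups, which received anti-Camta1 shRNA A, anti-Camta1 shRNA B or a non-targeting control shRNA. Every group, the controls included, carried a recombinant adeno-associated virus (rAAV) with an shRNA, a short hairpin RNA that lowers an mRNA it matches. The virus was injected at 8 weeks of age, tissue followed 3 weeks later, and the region that glowed red with mCherry was cut out. Such tissue can hold cells without virus, and the promoter and serotype of the virus are not given in the sources used here. Libraries were made from polyA RNA without keeping the strand and are named below by group and label number.

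Potassium channels set the resting potential of a neuron and end its action potentials, and each subfamily does this under different conditions. Kv channels open on depolarization, and auxiliary subunits adjust their gating and their trafficking to the membrane. Inward rectifiers and K2P channels act near rest, calcium-activated channels follow spikes, and HCN channels open on hyperpolarization and pass an inward cation current. In the hippocampus, Kv4 channels with their KChIP partners carry the dendritic A-type current, while Kir4.1 clears potassium into glia. Camta1, the target of the hairpins, encodes a calmodulin-binding transcription activator.

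Library totals lay between 29123744 and 38189288 counts, and 3 reads stood for 0.0786 to 0.103 CPM, the unit of level used below, which is a gene's count scaled to a common library size with TMM factors. The 52 channel genes took between 0.461% and 0.491% of a library's counts. Camta1 had 230, 174 and 254 CPM with shRNA A, 239, 145 and 266 CPM with shRNA B, and 427, 455 and 442 CPM in controls, which makes 49.8% (shRNA A) and 49.1% (shRNA B) of the controls' average. Its log2 fold change for the mean of both hairpins was -1.02 ± 0.18 (SE), with an edgeR adjusted p of 0.107 over all 16438 genes tested. Markers of neurons and of the hippocampal fields were detected in every library. In control replicate 3, the choroid plexus gene Ttr reached 935 CPM, while no other library exceeded 16.2 CPM. Pan-neuronal markers summed to 6784 to 7138 CPM with shRNA A, 6608 to 7112 CPM with shRNA B and 7017 to 8009 CPM in controls, and 0 of the 10 had a positive fold change with either hairpin.

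The auxiliary subunit Kcnab2 led the order of levels, which was set per kilobase of merged exon so that genes of different length could be compared. Merged length covers the exons of every annotated transcript, so a gene can be placed lower than the transcripts present would place it. Kcnab2, whose protein binds Kv1 channels, averaged 211 ± 21.1 CPM per kilobase in controls (SD, n = 3). Kcnip2, the A-type current partner KChIP2, followed with 75.7 ± 3.93 CPM per kilobase. Kcna1, the axonal channel Kv1.1, led the listed Kv genes at 50.8 ± 2.80 CPM per kilobase. At the other end stood Kcnmb4, the neuronal beta subunit of the BK channel, with 0.988 CPM per kilobase and Kcnn3, the small-conductance channel SK3, with 0.822 CPM per kilobase. Exons of Kcnmb4 overlap those of Kcnmb4os1 and Kcnmb4os2 on the opposite strand by 355 and 693 bases, where these libraries cannot assign reads. Kcna5, the delayed rectifier Kv1.5, had 0.638 CPM per kilobase and Hcn4, an HCN channel best known from the cardiac pacemaker, had 0.204 CPM per kilobase. Of the 52 genes, 3 reached 50 CPM per kilobase, 20 lay between 10 and 50, 25 between 1 and 10, and 4 under 1.

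Neighbours in that order mostly could not be ranked. The control values of 41 of 51 neighbouring pairs overlapped, and those of 10 pairs did not, such as Kcnab2 and Kcnip2 or Kcna5 and Hcn4. Kcna1, Hcn2, Kcnk1 and Kcnj4 stood between 50.8 and 41.4 CPM per kilobase, each overlapping the next. Kcnk1 encodes the K2P channel TWIK1 and Kcnj4 the strong inward rectifier Kir2.3. Kcnd2, the A-type channel Kv4.2, stood at 30.4 CPM per kilobase, against 9.64 CPM per kilobase for its relative Kcnd3. Among calcium-activated genes Kcnn2, the channel SK2, led with 12.5 CPM per kilobase, ahead of Kcnma1, the pore of the BK channel, with 6.23 CPM per kilobase. This order rests on merged exon lengths of 7468 bases for Kcnn2 and 16976 bases for Kcnma1. In CPM it was reversed, with control means of 93.1 CPM for Kcnn2 and 105.7 CPM for Kcnma1. Among the listed K2P genes Kcnk2, the channel TREK1, followed Kcnk1 at 13.2 CPM per kilobase and Kcnk9, the channel TASK3, was lowest at 1.62 CPM per kilobase. Kcnj2, the strong inward rectifier Kir2.1, was the lowest of the listed inward rectifiers at 1.70 CPM per kilobase. Hcn3 lay between the other listed HCN genes at 3.36 CPM per kilobase. The spread between controls differed among genes, with a coefficient of variation of 28.2% for Kcna5 and 26.1% for Kcnj2, against 3.1% for Kcnip3 and 3.36% for Kcnh3.

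**Figure D1:**
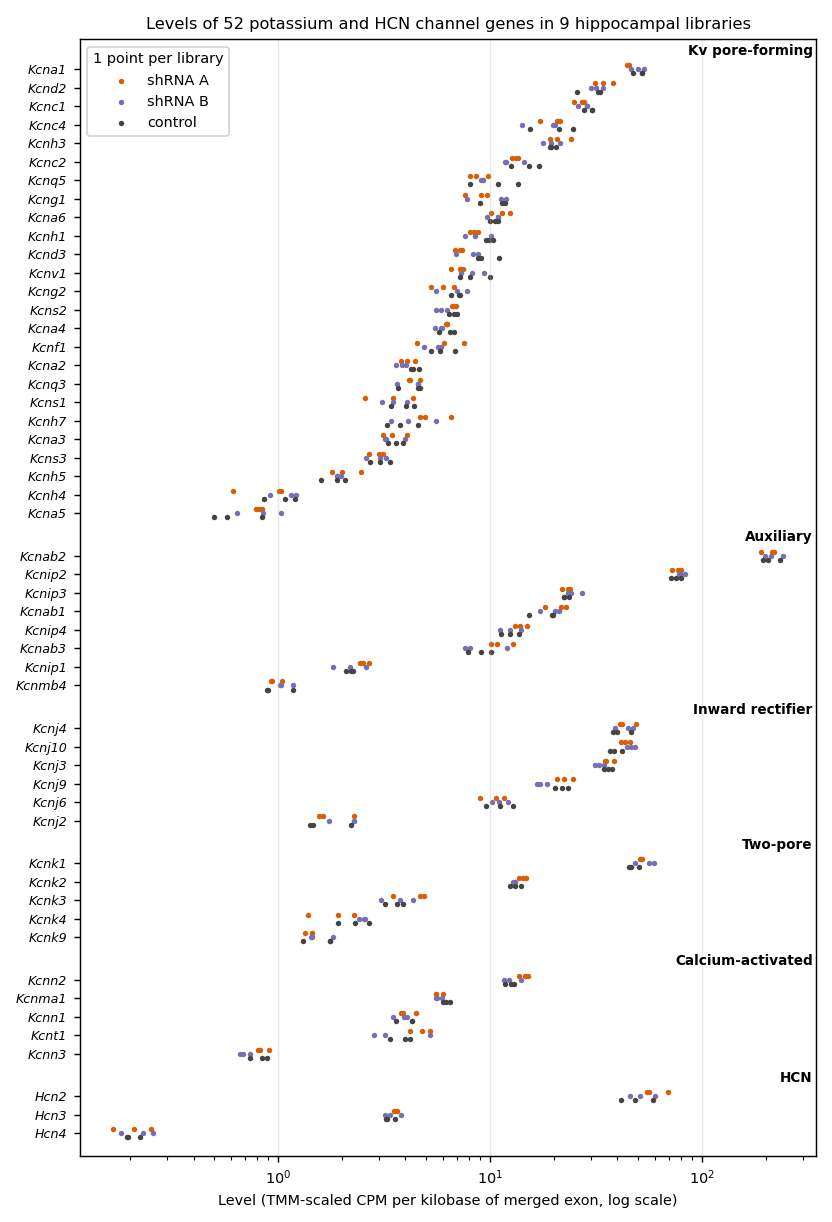
Level of each of the 52 channel genes in TMM-scaled CPM per kilobase of merged exon on a log axis, with genes down the page by subfamily and 1 point per library for shRNA A, shRNA B and control. Kcnab2 is highest at a control mean of 211 and Hcn4 lowest at 0.204, and for most genes the points of the 3 groups overlap.

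Knock-down of Camta1 was compared with control to ask which of these channel genes depend on it. No channel gene passed the test in any comparison: 0 of 52 had an adjusted p under 0.05 in edgeR's quasi-likelihood test with either hairpin or for their mean. Over all genes tested, 0.0243% were called with shRNA A, 1.02% with shRNA B and 0.0973% for the mean of both. At an unadjusted p under 0.05, 5 channel genes stood out with shRNA A, 8 with shRNA B and 7 for the mean, which is 9.62%, 15.4% and 13.5% of the 52 against 6.9%, 12.8% and 10.4% of all genes tested. limma-voom also called 0 of the 52, against 0%, 0.578% and 0.0791% of all genes, with 5, 7 and 6 at an unadjusted p under 0.05, against 6.76%, 12.9% and 10.2% of all genes. DESeq2 called 1 with shRNA A, 2 with shRNA B and 1 for the mean, named below, and it called 0.262%, 2.44% and 1.54% of all genes. For each of the 52 genes in each comparison, the 95% interval of the log2 fold change lay within -1 and 1, that is, within 2-fold. Where the groups are counted by overlap of their 3 libraries, 10 channel genes with shRNA A and 8 with shRNA B were apart from control (19.2% and 15.4%), against 12.5% and 18.1% of all genes tested. With shRNA A 6 of these lay above the controls and 4 below, with 6.84% and 5.65% of all genes doing so. With shRNA B it was 1 above and 7 below, with 9.27% and 8.88% of all genes. The interval stayed within -0.5 and 0.5 for 37 genes with shRNA A, 42 with shRNA B and 45 for the mean. The widest bound for the mean of both hairpins was 0.80, for Kcna5.

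**Figure D2:**
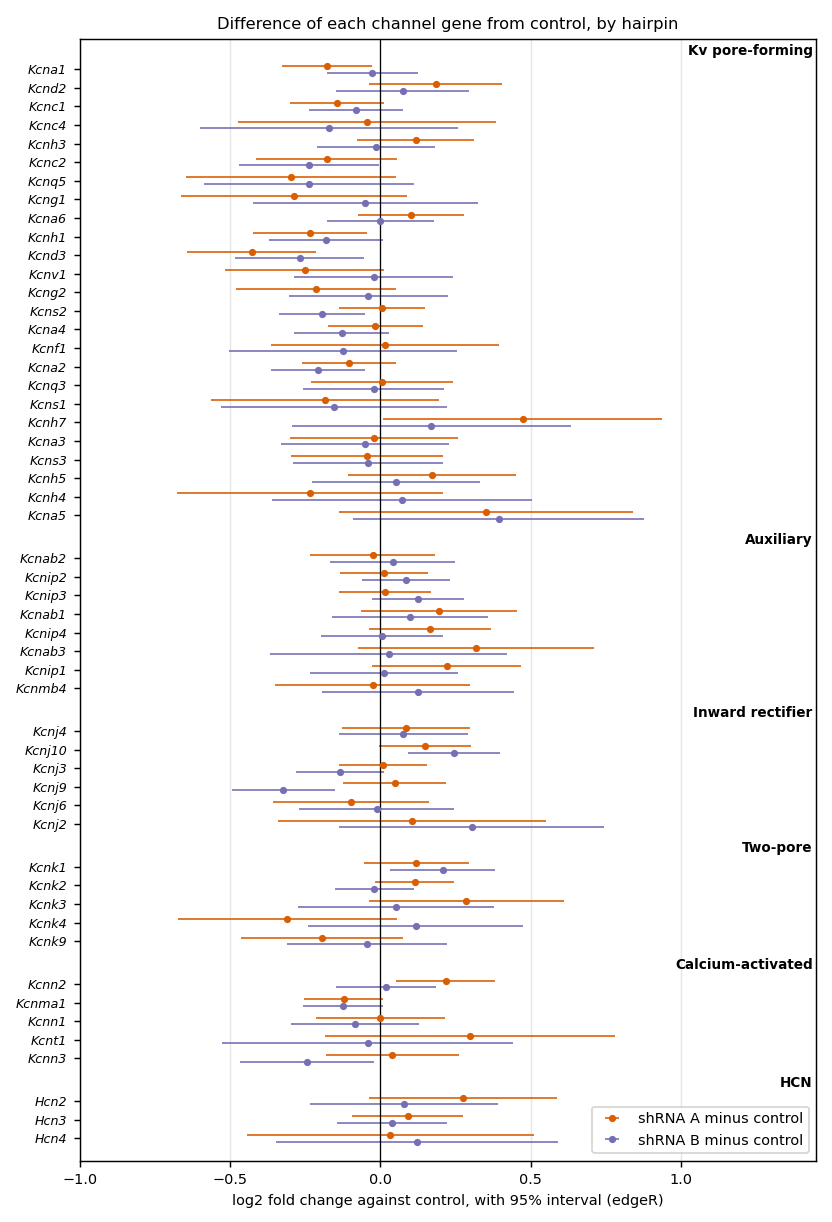
Log2 fold change of each channel gene against control in edgeR, with its 95% interval, for shRNA A and shRNA B, with genes down the page by subfamily. Estimates run between -0.43 (Kcnd3) and 0.47 (Kcnh7) with shRNA A and between -0.32 (Kcnj9) and 0.39 (Kcna5) with shRNA B, and none passed the adjusted threshold.

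Kcnd3 (ENSMUSG00000040896, chromosome 3) had the smallest p among the channel genes with shRNA A and for the mean of both hairpins. It encodes Kv4.3, a pore of the A-type current. Its exons overlap those of Kcnd3os on the opposite strand by 165 bases, where these libraries cannot assign reads. Kcnd3 had 69.3, 71.2 and 65.6 CPM with shRNA A, 83.9, 79.6 and 66.7 CPM with shRNA B, and 106, 84.4 and 87.3 CPM in controls. Every knock-down value was under every control value, although the highest of shRNA B came within 1 CPM of the lowest control. Against control, shRNA A gave a log2 fold change of -0.43 ± 0.0989 (SE) and shRNA B one of -0.27 ± 0.0985, with edgeR adjusted p of 0.353 and 0.278. For the mean it was -0.35 ± 0.0843 (95% interval -0.53 to -0.16), with an adjusted p of 0.148. DESeq2 gave adjusted p of 0.032 with shRNA A and 0.0182 for the mean, past the threshold. In the authors' deposited table, Kcnd3 has log2 fold changes of -0.428 for shRNA A and -0.271 for shRNA B and, from a likelihood ratio test over all 3 groups, an adjusted p of 0.0157. Without control replicate 1 the difference was -0.16 for shRNA B and -0.24 for the mean, and without shRNA B replicate 3 that of shRNA B was -0.18. Kcnd2, its A-type relative Kv4.2, stood at 197, 175 and 161 CPM with shRNA A, 155, 176 and 163 CPM with shRNA B and 133, 167 and 169.7 CPM in controls, so the groups overlapped. Its mean difference was 0.13 ± 0.0886 (adjusted p = 0.661, edgeR), and 0.02 without control replicate 1.

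The axonal Kv1 genes Kcna2 and Kcna1 gave small differences. Kcna2, the pore Kv1.2, had 48.6, 45.3 and 52.7 CPM with shRNA A, 47.7, 42.8 and 45.8 CPM with shRNA B, and 50.6, 55.3 and 51.6 CPM in controls. All shRNA B values lay below the controls, with a log2 fold change of -0.21 ± 0.0719 (adjusted p = 0.247, edgeR), while shRNA A overlapped them. Kcna1 had 213, 214 and 216 CPM with shRNA A, 255, 238 and 221 CPM with shRNA B, and 227, 251 and 249.9 CPM in controls. Here the shRNA A values lay below the controls (log2 fold change -0.18 ± 0.0696, adjusted p = 0.702) and those of shRNA B were spread across them. The low-level Kcna5 had 2.40, 2.25 and 2.32 CPM with shRNA A, 1.84, 2.42 and 2.96 CPM with shRNA B, and 2.41, 1.43 and 1.64 CPM in controls, overlapping throughout. Its mean difference of 0.37 ± 0.196 was the highest of the 52 and had an adjusted p of 0.556, and it was 0.62 without control replicate 1 and 0.22 without control replicate 2.

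Kv3 genes, whose channels allow fast spiking of interneurons, overlapped between groups. Kcnc2, the pore Kv3.2, had 94.9, 97.4 and 91.1 CPM with shRNA A, 85.2, 84.1 and 103 CPM with shRNA B, and 109, 122 and 90.1 CPM in controls. Its log2 fold change was -0.24 ± 0.107 with shRNA B and -0.21 ± 0.0918 for the mean (adjusted p = 0.382 and 0.46, edgeR). These were -0.14 and -0.11 without control replicate 2, and -0.35 and -0.32 without control replicate 3. Kcnc1, the pore Kv3.1, had 236, 263 and 256 CPM with shRNA A, 272, 272 and 245 CPM with shRNA B, and 262, 286 and 287 CPM in controls. Its mean difference was -0.11 ± 0.0619 (adjusted p = 0.574). Interneuron markers summed to 1009 to 1099 CPM with shRNA A, 814 to 1019 CPM with shRNA B and 927 to 1035 CPM in controls. The part of cell composition in the Kv3 values was not tested, and in bulk tissue fewer cells of a type and less RNA per cell cannot be told apart.

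Among the EAG and KCNQ families, Kcnh1 and Kcnq5 were lower on average. Kcnh1, the ether-a-go-go channel EAG1, had 62.0, 64.5 and 59.2 CPM with shRNA A, 73.8, 62.3 and 56.3 CPM with shRNA B, and 72.4, 75.5 and 70.5 CPM in controls. All shRNA A values lay below the controls and 1 shRNA B value lay among them. Log2 fold changes were -0.23 ± 0.0876 for shRNA A and -0.21 ± 0.0752 for the mean (adjusted p = 0.685 and 0.36, edgeR). Kcnh7, the erg-type channel Kv11.3, had 99.5, 74.9 and 71.5 CPM with shRNA A, 52.2, 62.5 and 84.6 CPM with shRNA B, and 50.03, 57.5 and 69.6 CPM in controls. All shRNA A values lay above the controls (log2 fold change 0.47 ± 0.203, adjusted p = 0.721, and 0.31 without shRNA A replicate 1). Its exons overlap those of the protein-coding gene Gca on the opposite strand by 696 bases, and these libraries cannot assign reads there. Kcnq5, a pore of the M-type current, had 75.6, 62.2 and 66.4 CPM with shRNA A, 69.7, 71.3 and 71.7 CPM with shRNA B, and 84.0, 105 and 62.3 CPM in controls. Its mean difference of -0.27 ± 0.134 (adjusted p = 0.544) was -0.08 without control replicate 2, the highest library, and -0.45 without control replicate 3.

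Electrically silent subunits, which join other Kv pores, included Kcns2 and Kcnv1. Kcns2, the Kv2 modifier Kv9.2, had 38.7, 37.5 and 37.1 CPM with shRNA A, 32.7, 31.1 and 34.9 CPM with shRNA B, and 35.9, 39.1 and 37.9 CPM in controls. The shRNA B values lay below all others, with a log2 fold change of -0.19 ± 0.0661 against control (adjusted p = 0.239, edgeR). Kcnv1, the modifier Kv8.1, had 34.3, 33.1 and 30.2 CPM with shRNA A, 42.9, 37.9 and 33.6 CPM with shRNA B, and 37.2, 46.0 and 33.0 CPM in controls, with a mean difference of -0.14 ± 0.104 (adjusted p = 0.695), which was 0.002 without control replicate 2 and -0.25 without control replicate 3.

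As a subfamily, the Kv pore-forming genes had lower summed levels in every knock-down library than in any control. Their 25 genes summed to 1619, 1621 and 1626 CPM with shRNA A, 1632, 1638 and 1581 CPM with shRNA B, and 1662, 1748 and 1706 CPM in controls. On average this was 95.1% (shRNA A) and 94.8% (shRNA B) of the control sum. The gap was small, between 1638 CPM in the highest knock-down library and 1662 CPM in the lowest control. With DESeq2 size factors or library size alone, which rescale the same counts, the groups also did not overlap. With library size alone, the highest knock-down sum was 98.57% of the control average and the lowest control sum 99.25%. Abundant genes weigh most in the sum, such as Kcnc1 and Kcna1 with control means of 278 and 243 CPM. Among single genes, 4.5% of those tested were apart in this way, in either direction. Positive log2 fold changes were found for 9 of the 25 genes with shRNA A, 6 with shRNA B and 6 for the mean, and the medians were -0.04, -0.05 and -0.09. Over all genes tested, 50.1%, 50.3% and 50.5% were positive and the medians lay within 0.01 of 0. No p is given for the sum or the medians, since the genes were chosen with results of these data known. The pan-neuronal markers, whose sums overlap between the groups, were lower on average, with median log2 fold changes of -0.09 with shRNA A and -0.11 with shRNA B, and 8 meningeal and fibroblast markers were below control too. These 8 summed to 53.7 to 66.5 CPM with shRNA A, 54.9 to 61.2 CPM with shRNA B and 67.5 to 122 CPM in controls, without overlap, and all 8 had a negative log2 fold change with each hairpin (medians -0.60 and -0.70). The part of either list in the Kv sum was not tested. With shRNA A alone, 2 other subfamily sums lay above all controls. K2P genes summed to 225 to 233 CPM, against 210 to 223 CPM in controls. Calcium-activated genes summed to 269 to 286 CPM, against 257 to 266 CPM in controls. The shRNA B sums of both overlapped the controls, and with library size alone the K2P sums of shRNA A did too.

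**Figure D3:**
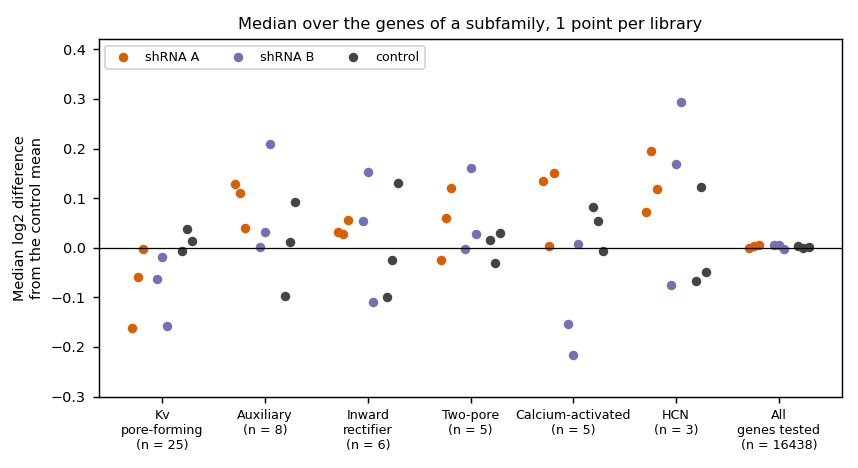
Median over the genes of each subfamily of the log2 difference from the control mean, with 1 point per library for shRNA A, shRNA B and control, and all 16438 genes tested at the right. The Kv points of the 6 knock-down libraries lie below 0, at -0.16 to -0.002, although the highest overlaps the lowest control at -0.007, and the other subfamilies overlap the controls as well.

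Auxiliary subunits stood close to control as a group, although Kcnab3 and Kcnip1 lay above all controls with shRNA A. Kcnab3 had 31.0, 29.05 and 37.0 CPM with shRNA A against 22.6, 26.1 and 29.03 CPM in controls. Kcnip1 had 15.2, 15.6 and 16.6 CPM against 13.0, 14.0 and 13.7 CPM. Their log2 fold changes with shRNA A were 0.32 and 0.22 (adjusted p = 0.757 and 0.746, edgeR), and with shRNA B both genes overlapped the controls. For the mean of both hairpins, 8 of 8 were positive on the log2 scale (median 0.08), as were 6 with shRNA A and 8 with shRNA B. Their summed level was 1849, 1700 and 1814 CPM with shRNA A, 1702, 1821 and 1991 CPM with shRNA B, and 1633, 1909.5 and 1762 CPM in controls, with full overlap. Most of it was Kcnab2, with 1193, 1063 and 1218 CPM with shRNA A, 1111, 1180.3 and 1347 CPM with shRNA B, and 1085, 1311 and 1141 CPM in controls. Kcnab1, another Kv1 beta subunit, had 196, 187 and 157 CPM with shRNA A, 148, 175 and 182 CPM with shRNA B, and 132, 171 and 169 CPM in controls (mean difference 0.15 ± 0.103, adjusted p = 0.67, edgeR, and 0.03 without control replicate 1). Kcnip2 had 278, 267 and 251 CPM with shRNA A, 277, 290.1 and 271 CPM with shRNA B, and 249, 264 and 277 CPM in controls, which overlapped, unlike its partner Kcnd3. The low-level Kcnmb4 had 3.48, 3.12 and 3.08 CPM with shRNA A, 3.44, 3.40 and 3.93 CPM with shRNA B, and 2.98, 2.96 and 3.90 CPM in controls.

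Among inward rectifiers, Kcnj9 and Kcnj10 had the smallest p with shRNA B, with opposite signs, and neither passed the edgeR threshold. Kcnj9 (ENSMUSG00000038026, chromosome 1) encodes Kir3.3, a subunit of the G protein-gated channels. It had 89.2, 96.2 and 105 CPM with shRNA A, 71.4, 73.8 and 79.8 CPM with shRNA B, and 94.4, 86.9 and 100.3 CPM in controls. The shRNA B values lay below all 6 other libraries. Exons of Kcnj9 overlap those of Gm36937 on the opposite strand by 172 bases, where these libraries cannot assign reads. Against control the shRNA B log2 fold change was -0.32 ± 0.0792 (95% interval -0.49 to -0.15), with the lowest adjusted p of the 52, 0.0858. DESeq2 gave 0.015 and called it. The authors' deposited table gives Kcnj9 log2 fold changes of 0.048 for shRNA A and -0.325 for shRNA B and an adjusted p of 0.00327 from the same test over 3 groups. Of its channel partners, Kcnj3, the subunit Kir3.1, had 201, 183 and 184 CPM with shRNA A, 180.3, 163 and 171 CPM with shRNA B, and 181, 188 and 196 CPM in controls. Kcnj6, the subunit Kir3.2, had 89.5, 81.9 and 69.0 CPM with shRNA A, 84.3, 92.7 and 77.8 CPM with shRNA B, and 73.3, 85.5 and 98.2 CPM in controls. Thus shRNA B lay below both other groups for Kcnj3, just under the lowest control, and among them for Kcnj6.

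Kcnj10 (ENSMUSG00000044708, chromosome 1) encodes the glial rectifier Kir4.1. It had 225, 247 and 234 CPM with shRNA A, 262, 241 and 251 CPM with shRNA B, and 199.8, 228 and 209 CPM in controls. All shRNA B values lay above the controls, with a log2 fold change of 0.24 ± 0.0704 (95% interval 0.09 to 0.40, adjusted p = 0.152, edgeR), and DESeq2 gave 0.0466. For the mean it was 0.20 ± 0.0614 (adjusted p = 0.276). Kcnj10 is a gene of astrocytes and oligodendrocytes, and oligodendrocyte markers were also higher on average. The 10 oligodendrocyte markers summed to 4412 to 6917 CPM with shRNA A, 3545 to 7244 CPM with shRNA B and 3137 to 5111 CPM in controls, with 10 and 9 of 10 positive and median log2 fold changes of 0.43 and 0.35. The 10 astrocyte markers summed to 4336 to 4849 CPM, 4254 to 4613 CPM and 4291 to 4638 CPM in the same groups, with 8 and 3 of 10 positive. The 7 oligodendrocyte precursor markers summed to 438 to 548 CPM, 404 to 516 CPM and 383 to 437 CPM, with 7 and 5 of 7 positive. Their median log2 fold changes were 0.29 and 0.16. None of these markers was at 0, and their part in the Kcnj10 values was not tested. Kcnj4 had 88.2, 90.0 and 105 CPM with shRNA A, 96.5, 102 and 83.5 CPM with shRNA B, and 82.2, 85.8 and 99.4 CPM in controls. Kcnj2 had 8.91, 12.5 and 8.54 CPM with shRNA A, 12.4, 12.4 and 9.46 CPM with shRNA B, and 8.00, 7.73 and 12.1 CPM in controls. Both overlapped between groups.

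Calcium-activated channels included Kcnma1 (ENSMUSG00000063142, chromosome 14), the other gene with all 6 knock-down libraries below all 3 controls. It had 102, 94.7 and 94.8 CPM with shRNA A, 95, 101 and 95.4 CPM with shRNA B, and 102, 109.8 and 105 CPM in controls. The gap was narrow, with the highest knock-down library at 101.8 CPM and the lowest control at 102.2 CPM. Exons of Kcnma1 overlap those of 4930519K11Rik on the opposite strand by 1016 bases, where these libraries cannot assign reads. The mean difference was -0.12 ± 0.0525 (95% interval -0.24 to -0.01), with an edgeR adjusted p of 0.431. No overlap between 6 knock-down libraries and 3 controls was seen for 3.85% of channel genes and for 4.5% of all genes tested. Kcnn2 had 109, 102 and 113 CPM with shRNA A, 87.3, 91.5 and 104 CPM with shRNA B, and 93.8, 97.1 and 88.2 CPM in controls. Here shRNA A lay above the controls, with a log2 fold change of 0.22 ± 0.0764 (adjusted p = 0.659), and shRNA B on both sides of them. Kcnn3 had 9.46, 8.59 and 8.44 CPM with shRNA A, 7.68, 7.17 and 6.89 CPM with shRNA B, and 9.29, 7.73 and 8.75 CPM in controls, so that shRNA B lay below both other groups (log2 fold change against control -0.24 ± 0.103, adjusted p = 0.345).

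**Figure D4:**
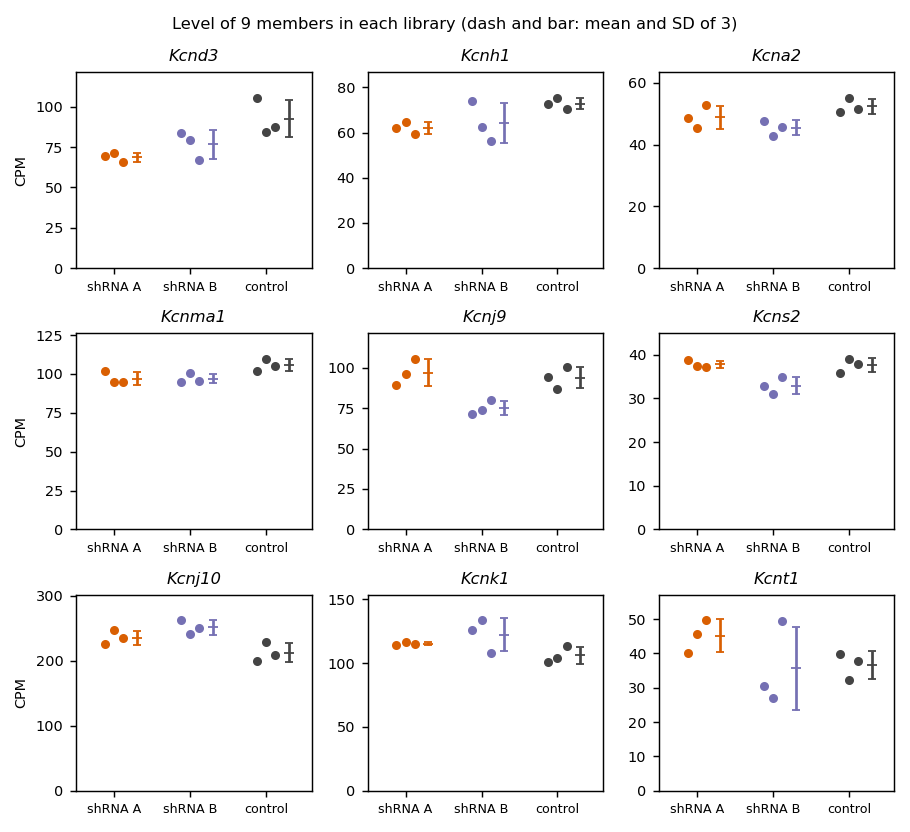
Level in CPM of 9 channel genes in each library, in panels by gene, with shRNA A and shRNA B left of control, and a dash and bar for the mean and SD of 3 libraries. Kcnd3 and Kcnma1 have all knock-down libraries below the controls, and Kcnj9 has shRNA B at 71.4 to 79.8 CPM, below the other groups.

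Among K2P channels Kcnk1 had the smallest p for the mean. It had 114, 116 and 115 CPM with shRNA A, 126, 134 and 108 CPM with shRNA B, and 101, 104 and 113 CPM in controls. The shRNA A values lay just above the controls, and 1 shRNA B value lay among them. Its log2 fold change was 0.21 ± 0.0799 with shRNA B and 0.16 ± 0.0697 for the mean (adjusted p = 0.302 and 0.435, edgeR). Kcnk2 had 73.0, 68.2 and 71.3 CPM with shRNA A, 65.2, 63.5 and 64.7 CPM with shRNA B, and 61.8, 69.1 and 65.3 CPM in controls. Kcnk3, the acid-sensitive channel TASK1, had 13.9, 18.7 and 19.4 CPM with shRNA A, 12.2, 14.9 and 17.2 CPM with shRNA B, and 15.5, 12.7 and 14.5 CPM in controls (mean difference 0.17 ± 0.129, adjusted p = 0.698, with 0.09 without control replicate 2 and 0.11 without shRNA B replicate 3). Kcnk9 had 17.8, 17.7 and 16.5 CPM with shRNA A, 17.8, 22.5 and 17.6 CPM with shRNA B, and 21.6, 16.2 and 21.8 CPM in controls. All 3 of these genes overlapped between knock-down and control libraries.

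HCN genes overlapped between the groups. Hcn2 had 176, 179.9 and 221 CPM with shRNA A, 164, 146 and 193 CPM with shRNA B, and 133, 188 and 155 CPM in controls. The groups overlapped, and its mean difference of 0.18 ± 0.123 had an edgeR adjusted p of 0.67. It was 0.06 without control replicate 1 and 0.31 without control replicate 2. Hcn3 had 14.7, 14.8 and 15.2 CPM with shRNA A, 13.2, 15.8 and 14.0 CPM with shRNA B, and 13.6, 14.8 and 13.5 CPM in controls. Hcn4 stayed between 1.02 and 1.58 CPM with both hairpins and between 1.19 and 1.37 CPM in controls. Each hairpin gave positive log2 fold changes for all 3 HCN genes, and their median was 0.09 for shRNA A and 0.08 for shRNA B.

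The hairpins have the same target, and shRNA B minus shRNA A tested directly where they differed. Its fold change sets no control library against the hairpins, while controls still enter the shared estimate of spread. No channel gene passed edgeR's threshold, nor did any of all genes tested (0%), while 6 channel genes (11.5%) and 9.34% of all genes had an unadjusted p under 0.05. DESeq2 called 1 channel gene and 0.764% of all genes. limma-voom called 0 channel genes and 0% of all genes, with 7 channel genes and 9.6% of all genes at an unadjusted p under 0.05. The gene that DESeq2 called was Kcnj9, with a log2 fold change of -0.37 ± 0.0792 (95% interval -0.54 to -0.20), an edgeR adjusted p of 0.175 and a DESeq2 adjusted p of 0.00797. A fit in edgeR to the 2 hairpin groups alone gave 0.289. The next were Kcns2 at -0.20 ± 0.0661 (adjusted p = 0.357), Kcnn3 at -0.28 ± 0.102 (0.403) and Kcnn2 at -0.20 ± 0.0763 (0.443), all in edgeR. Kcnk4, the mechanically gated channel TRAAK, had 11.4, 11.4 and 10.7 CPM with shRNA B and 6.20, 8.59 and 10.2 CPM with shRNA A, with 10.3, 12.1 and 8.56 CPM in controls. It was higher with shRNA B in 3 of 3 libraries, at 0.43 ± 0.165 (adjusted p = 0.446), or 0.25 without shRNA A replicate 1, and its exons overlap those of Catsperz on the same strand by 587 bases. All 5 calcium-activated genes had a negative shRNA B minus shRNA A value, with a median of -0.20. Their summed level was 238, 242 and 275 CPM with shRNA B, 278, 269 and 286 CPM with shRNA A, and 265, 266 and 257 CPM in controls. Kcnt1, a sodium-activated channel placed in that group, ran at 30.4, 26.9 and 49.6 CPM with shRNA B and 40.1, 45.5 and 49.7 CPM with shRNA A. Controls had 39.9, 32.1 and 37.9 CPM of Kcnt1, just under all shRNA A values and among those of shRNA B. Against control, the log2 fold change of Kcnt1 was 0.30 with shRNA A and -0.04 with shRNA B. Between the hairpins the Kcnt1 difference was -0.34 (edgeR adjusted p = 0.676), and it was -0.18 without shRNA B replicate 2. Without shRNA B replicate 3 it was -0.65 with an adjusted p of 0.0283, in a fit that called 0.663% of all genes against 0% with all libraries. Of the 52 genes, 8 did not overlap between the hairpins (15.4%), against 14.2% of all genes tested, with 2 higher and 6 lower with shRNA B against 7.29% and 6.95% of all genes. Microglia markers summed to 685 to 769 CPM with shRNA B and 596 to 676 CPM with shRNA A, and interferon response genes to 216 to 432 CPM with shRNA B and 117 to 166 CPM with shRNA A. In controls these lists summed to 557 to 594 CPM and 92.9 to 103 CPM. Against control, 13 of 13 interferon response genes were positive with each hairpin (median log2 fold changes 1.05 with shRNA A and 2.47 with shRNA B). So were 10 of 11 microglia markers (0.19 and 0.53). The part of these lists in the hairpin difference, or in the channel-gene differences from control, was not tested.

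Promoters are shown for the genes with all knock-down libraries on 1 side and for the rectifiers that DESeq2 called with shRNA B, a choice made after their values were seen. Each window runs from 250 bases before to 50 after the RefSeq start site (GRCm38.p6, strand of the gene, 5′ to 3′). Capitals mark CGCG, the core of the element bound by CAMTA proteins as known from plants, which reads the same on both strands. The windows are chr3:105451640-105451939 (plus strand) for Kcnd3, chr14:24004156-24004455 (minus strand) for Kcnma1, chr1:172329273-172329572 (minus strand) for Kcnj9 and chr1:172340960-172341259 (plus strand) for Kcnj10.
Kcnd3: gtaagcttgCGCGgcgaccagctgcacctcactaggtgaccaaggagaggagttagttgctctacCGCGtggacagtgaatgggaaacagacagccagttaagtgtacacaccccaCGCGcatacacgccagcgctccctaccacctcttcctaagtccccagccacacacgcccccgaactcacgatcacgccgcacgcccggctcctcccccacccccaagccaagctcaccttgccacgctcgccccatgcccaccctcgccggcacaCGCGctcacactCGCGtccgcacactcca
Kcnma1: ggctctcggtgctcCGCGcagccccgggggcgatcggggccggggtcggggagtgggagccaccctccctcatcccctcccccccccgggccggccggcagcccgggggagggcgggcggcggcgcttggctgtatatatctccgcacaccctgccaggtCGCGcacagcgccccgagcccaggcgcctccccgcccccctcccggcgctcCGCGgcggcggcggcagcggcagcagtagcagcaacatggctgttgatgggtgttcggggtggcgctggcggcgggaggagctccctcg
Kcnj9: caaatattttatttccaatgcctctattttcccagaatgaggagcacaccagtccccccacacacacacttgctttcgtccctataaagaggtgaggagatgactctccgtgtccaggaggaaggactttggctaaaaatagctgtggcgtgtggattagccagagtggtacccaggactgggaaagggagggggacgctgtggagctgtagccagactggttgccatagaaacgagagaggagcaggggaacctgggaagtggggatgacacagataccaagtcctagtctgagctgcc
Kcnj10: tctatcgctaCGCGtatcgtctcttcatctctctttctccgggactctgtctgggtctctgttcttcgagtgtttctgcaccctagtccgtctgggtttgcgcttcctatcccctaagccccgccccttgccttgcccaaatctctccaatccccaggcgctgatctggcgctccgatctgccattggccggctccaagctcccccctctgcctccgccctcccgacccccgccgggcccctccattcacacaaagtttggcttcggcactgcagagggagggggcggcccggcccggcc
CGCG occurred 5 times in the Kcnd3 window, 3 times in that of Kcnma1, once in that of Kcnj10 and not in that of Kcnj9. Kcnj9 and Kcnj10 face away from each other on chromosome 1, with 11387 bases between their windows. Of 58 windows that matched 39 channel genes, 34 held CGCG (58.6%), against 12495 of 32851 windows of all genes (38%). Among Kv genes it was 16 of 23 windows and among auxiliary subunits 5 of 16. A match is a string of letters and no sign of binding, and windows rich in G and C hold it more readily: the G and C share was 64% for Kcnd3, 78% for Kcnma1, 52.3% for Kcnj9 and 63.7% for Kcnj10.

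Other channel and partner genes outside the 52 were listed as well. Of 29 listed, 27 were tested and 0 passed edgeR's threshold in any comparison. With shRNA A 13 were positive, with shRNA B 8 and for the mean 11, and 3 had an unadjusted p under 0.05 for the mean. Among them was Kcnj16, the Kir5.1 partner of Kcnj10, named after its values were seen, with 14.3 CPM with shRNA A, 12.7 CPM with shRNA B and 18.9 CPM in controls on average. Its log2 fold change for the mean was -0.49 ± 0.156 (adjusted p = 0.31, edgeR), the opposite sign to Kcnj10. Kcnh8, an Elk-type Kv channel also named after its values were seen, averaged 0.603 CPM with shRNA A, 0.318 CPM with shRNA B and 0.257 CPM in controls. Its log2 fold change of 1.21 ± 0.349 with shRNA A (adjusted p = 0.506, edgeR) was beyond that of any of the 52.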

How the data were processed

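RNA was measured by RNA-seq in 9 libraries, 3 per group from separate animals per the series' design. What the authors deposited are raw whole-number counts of reads for each Ensembl gene, as per the file headers. The authors' deposited table also holds a mean normalized signal, log2 fold changes of each hairpin with their errors and a test statistic as score columns, and a p-value with its adjusted form, per the file headers. Per the submitters' processing notes, tools included HTSeq 0.6.1, TopHat 1.4.1, SAMtools 0.1.19, R 3.1.1 and DESeq2 1.4.5, with build mm9, and no source used here states the gene annotation. Because strand was not kept, reads of overlapping genes cannot be told apart: exons of 21 of the 52 genes overlap another gene by at least 100 bases, 4 of them a protein-coding one.

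Counts were fitted with edgeR 4.0.16 (robust quasi-likelihood, TMM, filterByExpr, which kept 16438 of 31804 genes) on all 9 libraries without a replicate block, in R 4.3.3. P-values, all two-sided, were adjusted by Benjamini-Hochberg over all genes tested, with a threshold of 0.05. The SE is the log2 fold change divided by the square root of F, in absolute value. The common biological coefficient of variation was 9.45%. Exon lengths came from GENCODE M21 (GRCm38), matched on the Ensembl identifier for 52 of 52 genes, and promoters from RefSeq, so no mm9 coordinates are given. Libraries of a group differed by more than counting noise (chi-square per degree of freedom 8.32 to 22.1), and the 3-read floors cover counting error only. The script was tested on simulated data.

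The channel genes, subfamilies and marker lists were chosen with earlier results of these data known. Values per library are given for the 20 genes with the smallest p for the mean, the 5 with the smallest p between hairpins, the 2 highest and the lowest per kilobase of each subfamily, and those with all knock-down libraries on 1 side of the controls. A few further genes (Kcnj3, Kcnj6, Kcnab3, Kcnip1, Kcnt1) were added after their values were seen. Alternatives were DESeq2 1.42.0, limma-voom (limma 3.58.1), other scalings and filters, robust estimation off, fits to fewer groups, a replicate block and leaving out each library. Subfamily medians under these settings and summed levels under other scalings were added after seeing the data.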

Additional observations from a re-analysis of the deposited data

How the results depend on the processing

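Counts of genes called, median differences, the Camta1 level and the fold changes of the channel genes with the smallest p were recomputed under 18 alternatives. Summed subfamily levels were recomputed under other scalings only. Counts of genes without overlap, levels per kilobase, marker sums and the genes outside the 52 were not recomputed. The count of channel genes called, 0 in every comparison, was 1 with shRNA A, 2 with shRNA B, 1 for the mean and 1 between hairpins under the DESeq2 Wald test, and between 0 and 1 for the hairpin comparison when each library was left out in turn, the 1 being Kcnt1 without shRNA B replicate 3, where 110 genes were called in all. The cause was not tested. Genes called in all ranged from 0 to 43 with shRNA A, 13 to 386 with shRNA B, 1 to 243 for the mean and 0 to 123 between hairpins, with DESeq2 highest in each, against 4, 167, 16 and 0. The Camta1 level (log2 fold change for the mean) passed the threshold at -1.02 with DESeq2 (adjusted p = 0.000365), at -1.02 with robust estimation off (0.0439) and, leaving out libraries, only without shRNA B replicate 2, within a range of -1.1 to -0.906. With libraries left out, the median log2 fold change of the 52 genes ranged from 0.00165 to 0.0456 with shRNA A, -0.0336 to 0.0129 with shRNA B, -0.0263 to 0.024 for the mean and -0.053 to 0.00334 between hairpins, with a change of sign in all but shRNA A. With library size alone 28 of 52 were positive with shRNA B, against 24. Kcnv1 ranged from -0.245 to 0.00227 for the mean and changed sign without control replicate 2, the one change of sign among the recomputed differences of single channel genes. Median Kv differences stayed negative in all settings for both hairpins and their mean (-0.123 to -0.0694 for the mean). The labels number the replicates and do not say whether the numbers pair libraries. Same-number correlations of deviations across genes were -0.116 to -0.00281 for shRNA A with control and -0.125 to -0.0529 for shRNA B with control. Each library of shRNA A correlated best with its own number of shRNA B (0.106, 0.0904 and 0.281). These correlations cannot settle pairing, since the deviations were taken from means of 3 libraries and so depend on each other. Under the replicate block 0 channel genes were called in each comparison, the Camta1 level was -1.06 (adjusted p = 0.04), and genes called in all numbered 5, 148, 31 and 1. With 3 libraries per group, a difference anywhere inside a gene's 95% interval remains possible, and the intervals are not adjusted for the number of genes tested. Overlap of groups or a p that misses the threshold does not show equality.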
